A study of Mus musculus with 8 samples.

Results

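The Notch receptors, 1 of their ligands, their DNA-binding partner and 4 of their target genes were examined in mouse embryonic fibroblasts (MEFs), connective tissue cells cultured from embryos, which a viral protein, large T antigen, had immortalized. The 10 genes were Notch1, Notch2, Notch3, Notch4, Jag1, Rbpj, Hes1, Hey1, Heyl and Nrarp, 10 of 18193 genes with a probe set of their own. They were chosen by name, and each was read by every probe set that the platform annotation assigns to it alone, 22 of the 45037 probe sets of the array that are not controls. A probe set is a group of short probes on an Affymetrix Mouse Genome array that together give 1 signal, in a linear MAS5 unit. The study held 8 arrays of total RNA, 2 for each of 4 genotypes: FIH null, VHL null, VHL/FIH null ("double null" from here on) and wild type. All 4 groups carried large T antigen and were grown at 21% oxygen. By the design text the null cells were made by infecting the immortalized lines FIHdf, VHLdf and VHLdf/FIHdf with a virus that delivers Cre recombinase. Genotype and line of origin therefore cannot be told apart, and whether the wild type cells met the virus is not given in the sources used here. The labels call the 2 arrays of a group biological replicates without naming separate embryos, clones or cultures, so a p-value covers only how far these samples lie apart, which may be technical. In bulk RNA, fewer cells of a type and less RNA per cell cannot be told apart.

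Notch receptors are cleaved when a ligand such as Jagged1 on a neighbouring cell binds them, and the freed intracellular part enters the nucleus, joins the DNA-binding protein RBPJ and switches on targets such as the Hes and Hey repressors. Factor inhibiting HIF (FIH), encoded by Hif1an, hydroxylates asparagines in hypoxia-inducible factor (HIF) alpha subunits and also in the ankyrin repeats of Notch receptors. VHL recognises HIF alpha subunits for a ubiquitin ligase, after which they are degraded. Transcript levels do not read hydroxylation, cleavage or protein, so the values below describe messenger RNA only.

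Arrays of 1 group correlated with r of 0.987 to 0.988 across tested probe sets and arrays of different groups with r of 0.946 to 0.977, a description across probe sets that are not independent replicates. The mean signal of Hif1an was 2867 ± 206 for wild type, 1691 ± 21.7 for FIH null, 2033 ± 169.9 for VHL null and 1286 ± 166 for double null cells (mean ± SD of 2 arrays, as everywhere below). In the same order that of Vhl was 3294 ± 36, 3480 ± 76.5, 731 ± 33.2 and 979 ± 116. Against wild type Hif1an fell in FIH null (-0.75 on the log2 scale, adjusted p = 0.00449), double null (-1.15, adjusted p = 4.35e-05) and also VHL null cells (-0.49, adjusted p = 0.00886), the last ending without wild type replicate 2 (0.0633) or VHL null replicate 1 (0.0687). Vhl fell in VHL null (-2.15, adjusted p = 5.88e-07) and double null cells (-1.74, adjusted p = 1.38e-06), and whether these probes lie in the deleted parts was not tested. Another Vhl probe set fell by 2.53 and 2.19 in the same comparisons (adjusted p = 4.53e-06 and 7.38e-06). Another Hif1an probe set fell in double null cells alone (-1.34, adjusted p = 0.00647), with -1.12 (adjusted p = 0.072) in FIH null and 0.16 (adjusted p = 0.716) in VHL null cells, and the last, near the cutoff described next, passed in no comparison. Of 14 fibroblast markers 12 were above that cutoff on at least 2 arrays, and Lum and Fap were below it on all 8. In double null cells 3 of the 12 were below it on both arrays. Pdgfra read 160 and 190 there against 777 and 1243 in wild type (at least 3.47-fold lower, adjusted p = 3.41e-05) and Dcn 47.7 and 213 against 588 and 632 (at least 2.1-fold lower, adjusted p = 0.00506), while Thy1 did not pass (-0.60, adjusted p = 0.24). Dcn and Thy1 were also below the cutoff on both FIH null arrays, where Dcn was at least 2.1-fold lower than in wild type (adjusted p = 0.0304). In double null against wild type cells 3 of the 12 passed as higher and 3 as lower. The rises were of Col3a1 (1.15, adjusted p = 1.96e-07), Prrx1 (0.46, adjusted p = 6.72e-04) and S100a4 (0.35, adjusted p = 0.00741), and the falls of Pdgfra, Dcn and Pdgfrb. The part of these markers in the Notch values was not tested. Spiked hybridization controls gave log2 signals 0.26 (FIH null), 0.38 (VHL null) and 0.52 (double null) higher than on wild type arrays, so that scaling to them lowers every change by those amounts. Of all calls against wild type, rises then made up 1.31% (FIH null), 5.22% (VHL null) and 4.85% (double null), in place of 26.8%, 37.5% and 41.3%. The share of rises also went from 53.7% to 26.8% in double null against VHL null cells, from 43.8% to 15.2% when double null cells were set against FIH null ones, and from 57% to 77.6% in the interaction. With each array's median centred, which moved the median of all changes in VHL null cells by 0.15, rises made up 64.8% (VHL null) and 55.9% (double null) of the calls against wild type, 40% in double null against VHL null cells and 39.7% in the interaction. Precision is limited by the small number of arrays.

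The 250 bases before the annotated start site are shown for Notch3, Jag1, Rbpj and Nrarp, 4 genes with called changes whose windows hold a searched motif. They are from RefSeq (build GRCm38.p6), on the strand of the gene, 5′ to 3′. Capitals mark the RBPJ core TGGGAA and the hypoxia response cores ACGTG and GCGTG, on either strand. Notch3, chr17:32166891-32167140, minus strand; Jag1, chr2:137116521-137116770, minus strand; Rbpj (first of 2 listed start sites), chr5:53590096-53590345, plus strand; Nrarp, chr2:25180508-25180757, plus strand.
Notch3: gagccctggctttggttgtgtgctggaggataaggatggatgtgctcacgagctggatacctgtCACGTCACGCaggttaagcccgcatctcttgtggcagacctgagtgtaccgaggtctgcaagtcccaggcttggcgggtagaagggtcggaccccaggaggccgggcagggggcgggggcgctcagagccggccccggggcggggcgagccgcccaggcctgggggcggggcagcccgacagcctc
Jag1: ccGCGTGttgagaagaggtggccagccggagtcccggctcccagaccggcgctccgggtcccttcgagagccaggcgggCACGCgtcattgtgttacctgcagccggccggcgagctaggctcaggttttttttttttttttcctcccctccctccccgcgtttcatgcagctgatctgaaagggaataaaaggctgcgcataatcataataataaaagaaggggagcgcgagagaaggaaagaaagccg
Rbpj: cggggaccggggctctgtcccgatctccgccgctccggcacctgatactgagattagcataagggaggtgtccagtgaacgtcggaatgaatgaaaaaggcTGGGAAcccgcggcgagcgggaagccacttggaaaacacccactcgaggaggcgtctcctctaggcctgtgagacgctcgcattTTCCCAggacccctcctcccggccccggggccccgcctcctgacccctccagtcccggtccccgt
Nrarp: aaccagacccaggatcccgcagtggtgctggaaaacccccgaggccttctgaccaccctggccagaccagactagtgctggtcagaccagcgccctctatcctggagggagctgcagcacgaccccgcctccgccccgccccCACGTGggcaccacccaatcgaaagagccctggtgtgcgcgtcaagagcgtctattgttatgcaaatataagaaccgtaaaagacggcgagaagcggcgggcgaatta

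Promoters of 7 of the 10 genes were in the table, in 8 windows, and Hes1, Hey1 and Heyl were not in it. The RBPJ core was in 2 windows, both of Rbpj and overlapping each other, and in 21.6% of all 32851 promoter windows of the same length. In the first Rbpj window it stood 149 to 144 and 65 to 60 bases before the start, and the match of the second window is the latter of these read from its own start. A hypoxia core was in 6 of the 8 windows and in 38.6% of all windows. ACGTG, with or without GCGTG, was in 16.6% of all windows, and GCGTG, with or without ACGTG, in 28.2%. In Nrarp both strands of ACGTG overlapped, 108 to 103 bases before the start. In Notch3 ACGTG and GCGTG followed each other directly, 186 to 177 bases before the start. Notch1 had no match in its window. A match is a description of letters and not of a binding site.

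For the tests 16 was added to each signal and log2 taken. Probe sets entered them with 2 or more arrays over 291.1, the cutoff named above and the middle value of all signals. That left 15 of the 22 Notch probe sets, at least 1 for each gene, among 24523 tested in all. Each gene is described by its lead probe set, the tested one with the highest mean log2 signal. The lead probe set of Notch4 was above the cutoff on the 2 double null arrays alone, so it entered the tests by its level in that group; p-values of Notch4 are therefore given from the fit without a filter on low signals, over all 45037 probe sets. That of Hey1 was above it on both double null arrays and on 1 array each of the FIH null and VHL null cells, that of Nrarp on both wild type and both double null arrays, and that of Heyl on 1 FIH null and 1 double null array. The other 6 lead probe sets were above it on all 8 arrays. Nrarp thus entered the tests by its level in wild type and double null cells. That favoured its calls against VHL null cells and in the interaction, whose p-values are from the filtered fit.

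**Figure D1:**
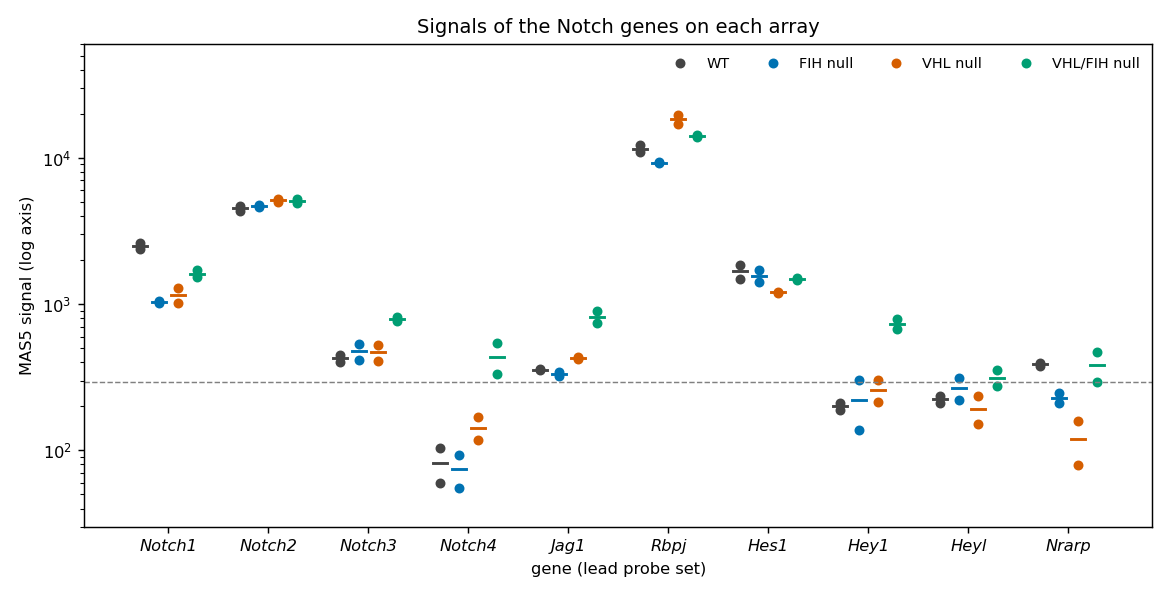
MAS5 signal (log axis) of the lead probe set of each of 10 Notch genes on each of the 8 arrays, coloured by genotype, with a bar at the mean of the 2 arrays and a dashed line at the cutoff of 291.1. Notch1 is highest in wild type, Rbpj is highest in VHL null, and Notch3, Notch4, Jag1 and Hey1 are highest in double null cells.

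By their lead probe sets, Notch1 fell in all 3 null genotypes against wild type, Rbpj rose with loss of VHL, and Notch3, Jag1 and Hey1 rose in double null cells. Fewer Notch probe sets passed with loss of FIH alone than with loss of VHL or of both, as was so for the array as a whole. Between FIH null and wild type cells 1 of 15 passed (limma, Benjamini-Hochberg adjusted p under 0.05), a fall, where 4.33% of all tested probe sets passed, 1.16% higher and 3.17% lower. Between VHL null and wild type cells 6 passed, 2 higher and 4 lower, against 35.3% of all, 13.2% higher and 22.1% lower. For double null and wild type cells 7 passed, 5 higher and 2 lower, against 34.1% of all, 14.1% higher and the rest lower. Between double null and VHL null cells 8 passed, 5 higher and 3 lower, against 29.8% of all, 13.8% lower and the rest higher. Of the 7 that passed between double null and FIH null cells each was higher, against 38.3% of all, 16.8% higher and 21.5% lower. In the interaction, which asks whether the effect of FIH loss differs between cells without and with VHL, 3 passed, each above 0, against 15.7% of all, 8.96% above and 6.76% below 0. Notch4 is 1 of the rises counted for double null cells against both wild type and FIH null ones, which its entry into the tests had favoured. Entry also favoured Nrarp, 1 of the calls in VHL null against wild type, in double null against VHL null and in the interaction. Comparisons that share a group share its arrays, so their counts are not independent of each other. With scaling to the hybridization controls 6 passed in FIH null cells, all lower, 4 of 5 that passed in VHL null cells were lower, and 9 of 12 in double null against wild type cells were lower. In that scaling 3 of 6 were lower in double null against VHL null cells. Calls also grew over the array as a whole. Of 24523 tested probe sets, 7942 (FIH null), 15370 (VHL null) and 18121 (double null) then passed against wild type. Without that scaling the numbers were 1062, 8658 and 8358. In double null against VHL null cells 7759 passed, in place of 7310. Whether the Notch counts exceed those of the array was not tested. Leaving out 1 array moved some counts by more than 1.5 times. In FIH null against wild type cells 2 passed without FIH null replicate 2 or either VHL null replicate. In VHL null against wild type cells 3 passed without VHL null replicate 1. Double null against wild type cells gave 3 without wild type replicate 1 and 4 without double null replicate 1. Double null against VHL null cells gave 4 without VHL null replicate 1 or double null replicate 2, and 5 without VHL null replicate 2 or double null replicate 1. Double null against FIH null cells gave 4 without double null replicate 1. In the interaction 1 passed without wild type replicate 1 or 2, FIH null replicate 1 or double null replicate 1.

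Among the receptors, Notch1 was lower in every null genotype than in wild type. Its lead probe set read 2631 and 2388 on the wild type arrays, 1014 and 1053 in FIH null, 1018 and 1295 in VHL null, and 1697 and 1528 in double null cells. The wild type arrays stood above all others, the double null arrays came next, and the FIH null and VHL null arrays overlapped each other. On the log2 scale FIH null cells differed from wild type by -1.27 in Notch1 (SE 0.135, adjusted p = 3.04e-04), VHL null cells by -1.11 (adjusted p = 1.76e-04) and double null cells by -0.63 (adjusted p = 0.00455). The FIH null mean was 1034 ± 28.0 against 2509 ± 172 in wild type, a 2.43-fold difference. Double null cells were higher in Notch1 than FIH null cells by 0.63 (adjusted p = 0.00398) and higher than VHL null cells by 0.48 (adjusted p = 0.0213). The last call ended without VHL null replicate 1 (adjusted p = 0.152), without double null replicate 1 (0.107) and with scaling to the hybridization controls (0.0696), and the other 4 pairwise calls of this probe set held under each alternative run.

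The other Notch1 probe set, 1418633_at, moved the same way against wild type with smaller differences. It read 1522 and 1105 in wild type, 789 and 1065 in FIH null, 616 and 883 in VHL null, and 851 and 817 in double null cells. Its fall of 0.80 in VHL null cells passed (adjusted p = 0.0167), as did that of 0.63 in double null cells (adjusted p = 0.0481), while FIH null cells, at -0.49, missed the threshold (95% interval -0.98 to -0.01, adjusted p = 0.27). Unlike the lead probe set, it did not pass between double null and FIH null cells (-0.135, adjusted p = 0.667) or between double null and VHL null cells (0.17, adjusted p = 0.595). The double null call ended under 8 alternatives, among them no filter (adjusted p = 0.0873), quantile normalization (0.0752), median centring (0.0694), no variance trend (0.108) and array weights (0.077). Leaving out wild type replicate 1 ended both calls, at adjusted p = 0.135 (VHL null) and 0.293 (double null). The VHL null call also ended without a variance trend (adjusted p = 0.0571) and without VHL null replicate 1 (0.13), and the double null call without either double null replicate (adjusted p = 0.113 and 0.149).

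Notch2, a receptor widely made in mesenchyme, read much the same on all arrays. Its lead probe set ran from 4334 to 5264 over the 8 arrays, with means of 4520 ± 263 in wild type cells, 4681 ± 120 with FIH lost, 5120 ± 147 with VHL lost and 5098 ± 234 with both lost. No comparison of it passed. The change in VHL null cells was 0.18 (95% interval 0.01 to 0.35, adjusted p = 0.0893) and that in FIH null cells 0.05 (-0.12 to 0.22). The small change in VHL null cells became a rise with quantile normalization (0.26, adjusted p = 0.0235) or median centring (0.33, adjusted p = 0.0056) and was -0.20 when the hybridization controls set the scale. The change of 0.17 in double null against wild type cells (adjusted p = 0.103) likewise passed with quantile normalization (0.23, adjusted p = 0.0378) or median centring (0.25, adjusted p = 0.0231), and it became a fall (-0.35) once scaled to the hybridization controls (adjusted p = 0.00418). The second tested probe set of Notch2 lay near the cutoff, with means from 211 to 387, and none of its comparisons passed.

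Notch3, which marks the cells around blood vessels in tissue, was highest in double null cells. Its lead probe set, whose _s_at suffix means that it can read more than 1 transcript, gave 404 and 447 in wild type, 414 and 534 in FIH null, 525 and 409 in VHL null, and 768 and 816 in double null cells. The double null arrays stood above the other 6, and the other 3 groups overlapped. Notch3 rose by 0.87 in double null against wild type cells (SE 0.216, adjusted p = 0.0101), by 0.75 against VHL null cells (adjusted p = 0.0239) and by 0.73 against FIH null cells (adjusted p = 0.0214). Its changes in FIH null (0.14, 95% interval -0.34 to 0.62) and VHL null cells (0.12, -0.36 to 0.60) did not pass. All 3 Notch3 calls ended with scaling to the hybridization controls (adjusted p = 0.181, 0.0636 and 0.105) and without double null replicate 2 (0.0538, 0.0978 and 0.0927). Single arrays also decided them otherwise: the call against wild type ended without wild type replicate 1 (adjusted p = 0.0589), that against VHL null cells without VHL null replicate 2 (0.138) or double null replicate 1 (0.0673), and that against FIH null cells without FIH null replicate 1 (0.146) or double null replicate 1 (0.0582). The other Notch3 probe set was below the cutoff on every array.

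Notch4, best known from endothelial cells, was above the cutoff in double null cells alone. The lead probe set read 59.7 and 104 in wild type, 93.5 and 55.4 in FIH null, 168 and 117 in VHL null, and 332 and 538 in double null cells. Set against the cutoff, the double null mean of 435 ± 146 was at least 1.49-fold higher than in each of the other groups. In the fit without a filter the difference passed against wild type (adjusted p = 0.0139) and FIH null cells (adjusted p = 0.00941) and not against VHL null cells (adjusted p = 0.0885). In the filtered fit the call against wild type ended without wild type replicate 1 (adjusted p = 0.0509). A log2 change with a group below the cutoff is no measure of its size, so none is given. The other 2 Notch4 probe sets stayed below the cutoff on all 8 arrays, with highest signals of 148 and 186, and did not repeat the double null signal.

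**Figure D2:**
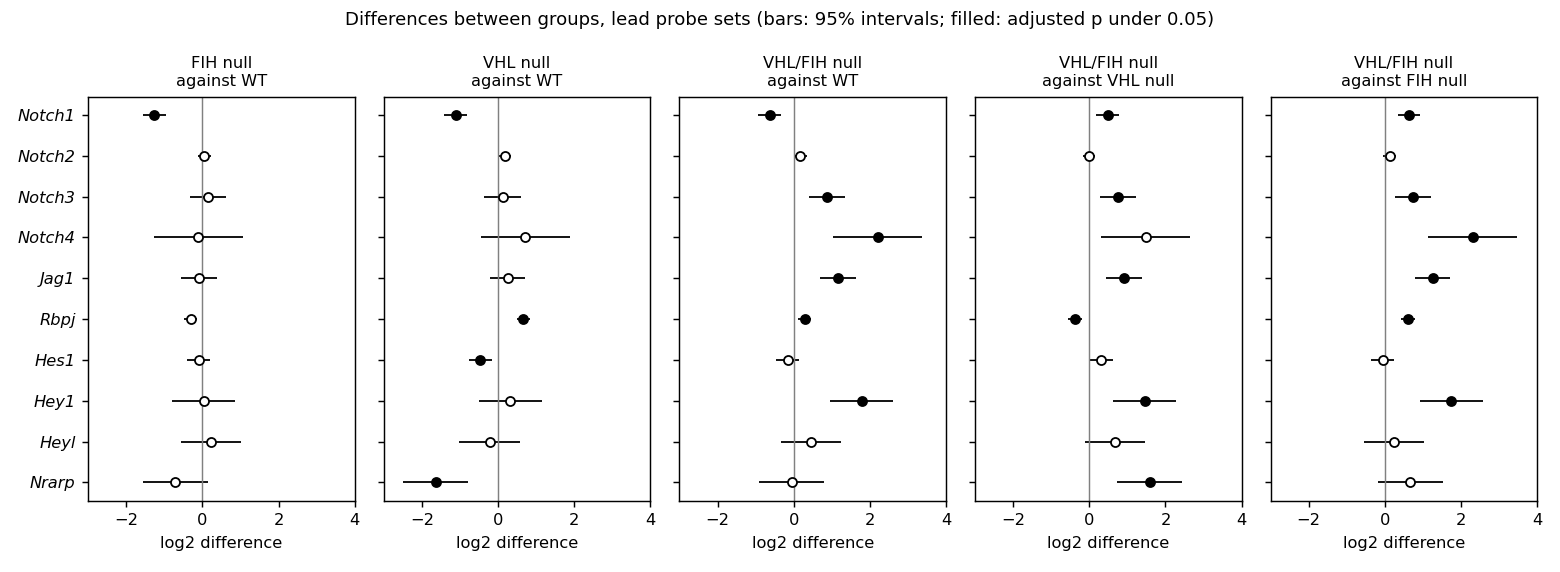
Log2 differences between groups (x axis) for the lead probe set of each of 10 Notch genes (rows), 1 panel for each of 5 comparisons, with 95% intervals from limma and filled points where the adjusted p was under 0.05. Notch1 lies left of 0 in the 3 comparisons with wild type, and the points of Notch3, Jag1 and Hey1 are filled and right of 0 in double null cells against wild type; the filled points of Notch4 come from the filtered fit, which it entered by its double null level.

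The ligand Jag1, whose product binds Notch receptors on the next cell, was highest in double null cells. Its lead probe set read 359 and 353 in wild type, 346 and 322 in FIH null, 433 and 422 in VHL null, and 742 and 899 in double null cells. The groups did not overlap in any of these comparisons, in the order double null, VHL null, wild type and FIH null. Jag1 rose by 1.16 in double null against wild type cells (SE 0.21, adjusted p = 0.00176), by 1.25 against FIH null cells (adjusted p = 9.48e-04) and by 0.91 against VHL null cells (adjusted p = 0.00845). The smaller differences of VHL null (0.25, 95% interval -0.21 to 0.72) and FIH null (-0.09, -0.56 to 0.38) from wild type cells did not pass. The call against VHL null cells ended without double null replicate 2 (adjusted p = 0.0644). Another tested Jag1 probe set, 1421105_at, did not follow the lead one. It read 314 and 466 in wild type, 45.2 and 437 in FIH null, 344.5 and 190.5 in VHL null, and 146 and 161 in double null cells, lowest in mean where the lead probe set was highest, and its change of -1.24 in double null against wild type cells did not pass (95% interval -2.89 to 0.41, adjusted p = 0.229). In the counts with scaling to the hybridization controls, 1421105_at was among the probe sets that passed as lower in that comparison. The third stayed under the cutoff on all arrays.

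Rbpj, the DNA-binding partner of the cleaved receptors, was highest in VHL null cells by all 3 of its probe sets. The lead probe set read 10876 and 12162 in wild type, 9234 and 9304 in FIH null, 19528 and 17072 in VHL null, and 14314 and 13878 in double null cells, and no 2 groups overlapped. It rose by 0.67 in VHL null against wild type cells (SE 0.0783, adjusted p = 1.47e-04). Double null cells were higher than FIH null cells by 0.60 (adjusted p = 1.73e-04), the other comparison that differs in VHL. It fell by 0.37 in double null against VHL null cells (adjusted p = 0.00494), a call that ended without VHL null replicate 1 (0.0514). In FIH null against wild type cells the change was -0.31 (95% interval -0.48 to -0.14, adjusted p = 0.054). That comparison passed without VHL null replicate 1 (adjusted p = 0.0475) or 2 (0.0467), with scaling to the hybridization controls (-0.57, adjusted p = 0.00171) and with 1 probe set per gene (0.0334). Rbpj rose by 0.29 in double null against wild type cells (adjusted p = 0.0149), a direction that turned with scaling to the hybridization controls (-0.23, adjusted p = 0.0413). Dropping wild type replicate 1 (adjusted p = 0.119) or double null replicate 1 (0.0624) ended that call.

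The other Rbpj probe sets gave 10235 ± 988, 9324 ± 255, 14837 ± 680 and 11816 ± 1478 (1448957_at) and 6013 ± 40.6, 4886 ± 512, 7081 ± 411 and 5322 ± 203 (1418114_at) in wild type, FIH null, VHL null and double null cells. The first of these rose by 0.54 in VHL null cells (adjusted p = 0.00146, and 0.153 with scaling to the hybridization controls) and the second changed by 0.23 (adjusted p = 0.053). All 3 fell in double null against VHL null cells, by 0.33 (adjusted p = 0.021) and 0.41 (adjusted p = 0.00449) for these. The fall of 1448957_at ended without VHL null replicate 1 (adjusted p = 0.127) or 2 (0.0507) and without double null replicate 2 (0.136). It rose by 0.34 in double null against FIH null cells (adjusted p = 0.0158), which ended without FIH null replicate 1 (0.0887), without double null replicate 1 (0.111) and with scaling to the hybridization controls (0.537). There 1418114_at changed by 0.13 and did not pass (adjusted p = 0.269). That probe set therefore passed in neither comparison that differs in VHL alone.

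Of the target genes, Hes1, which encodes a repressor that also turns off its own gene, was lower in VHL null than in wild type cells. Its single probe set read 1495 and 1859 in wild type, 1414 and 1719 in FIH null, 1196 and 1208 in VHL null, and 1516 and 1469 in double null cells, so that the VHL null arrays stood below the other 6 and the other groups overlapped. The fall of Hes1 in VHL null cells was -0.47 (SE 0.138, adjusted p = 0.0236). The call ended with quantile normalization (-0.31, adjusted p = 0.109) and median centring (0.0931), and without wild type replicate 2 (0.171), VHL null replicate 1 (0.0884) or VHL null replicate 2 (0.0795). The changes in FIH null (-0.10, 95% interval -0.40 to 0.21) and double null cells (-0.16, -0.46 to 0.15) against wild type did not pass, and the latter became a fall with scaling to the hybridization controls (-0.68, adjusted p = 0.00139).

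Hey1, a repressor of the same family that acts in vessels and heart, was above the cutoff on both arrays of the double null group and of no other. It read 190 and 212 in wild type, 138 and 305 in FIH null, 304.5 and 213.5 in VHL null, and 674 and 788 in double null cells. The double null mean of 731 ± 80.5 was at least 2.51-fold higher than in each other group. The means of the other groups lay below the cutoff, so the log2 changes of Hey1 are no measure of size. Its difference passed against wild type (log2 change 1.78, adjusted p = 0.00411), FIH null (1.74, adjusted p = 0.00401) and VHL null cells (1.46, adjusted p = 0.0139), the last of which ended without VHL null replicate 2 (0.0888) or double null replicate 2 (0.0838). Heyl, a further repressor of this family, stayed near the cutoff. It read 236 and 209.5 in wild type, 313 and 219 in FIH null, 234 and 151 in VHL null, and 354 and 273 in double null cells, and no comparison of it passed. Its other 2 probe sets were below the cutoff on all arrays.

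Nrarp, whose product dampens Notch signalling by binding the cleaved receptor complex, was lowest in VHL null cells. It read 377 and 397 in wild type, 212 and 247 in FIH null, 79.9 and 158.5 in VHL null, and 468 and 294 in double null cells. Wild type and double null arrays overlapped, both lay above the cutoff, and the FIH null and VHL null arrays lay below it. Log2 changes of Nrarp that involve FIH null or VHL null cells are therefore no measure of size. Against the cutoff, VHL null cells were at least 1.33-fold lower than wild type (log2 change -1.64, adjusted p = 0.00795), and double null cells were at least 1.31-fold higher than VHL null cells (1.58, adjusted p = 0.0109). Without VHL null replicate 1 both calls ended (adjusted p = 0.0522 and 0.0703), and the second also ended without double null replicate 1 (0.0889). Both were favoured by the entry of Nrarp into the tests on wild type and double null arrays. The change in FIH null cells did not pass (-0.72, 95% interval -1.57 to 0.14, adjusted p = 0.364). The second Nrarp probe set stayed below the cutoff.

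Whether loss of FIH had a different effect in cells with and without VHL was asked with the interaction, in which these 2 effects share no array. Notch1 was lower in FIH null than in wild type cells and higher in double null than in VHL null cells, so that its 2 effects of FIH loss, -1.27 and 0.48, differed by 1.75 (SE 0.191, adjusted p = 2.27e-04). That of Nrarp was -0.72 with VHL and 1.58 without it, a difference of 2.30 (SE 0.545, adjusted p = 0.0174). That of Jag1 was -0.09 and 0.91, a difference of 0.998 (SE 0.298, adjusted p = 0.0462). The FIH null and VHL null arrays of Nrarp, and the Hey1 means of all groups but double null, lay below the cutoff. The differences of Nrarp and Hey1 are therefore no measure of size. The Nrarp call was also favoured by its entry into the tests on wild type and double null arrays, which both count positively in the interaction. Hey1 (1.42, adjusted p = 0.0981), Notch3 (0.61, adjusted p = 0.212), Hes1 (0.40, adjusted p = 0.195) and Heyl (0.46, adjusted p = 0.593) did not pass, with differences above 0. For Rbpj (-0.06, 95% interval -0.31 to 0.18) and Notch2 (-0.06, -0.30 to 0.18) the estimates lay near 0. The Notch1 interaction of the lead probe set held under each alternative run, while that of the other Notch1 probe set did not pass (0.67, adjusted p = 0.18). Dropping any 1 of 4 arrays ended that of Nrarp: wild type replicate 1 (adjusted p = 0.0505) or replicate 2 (0.0525), replicate 1 of the FIH null cells (0.0576) and double null replicate 1 (0.064). That of Jag1 ended without any 1 of the 8 arrays (adjusted p from 0.0537 to 0.136), with the replicate number as a block (0.0542), without a filter (0.108), with quantile normalization (0.0664) and with median centring (0.0639). The Hey1 interaction passed without FIH null replicate 2 (1.95, adjusted p = 0.0334).

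**Figure D3:**
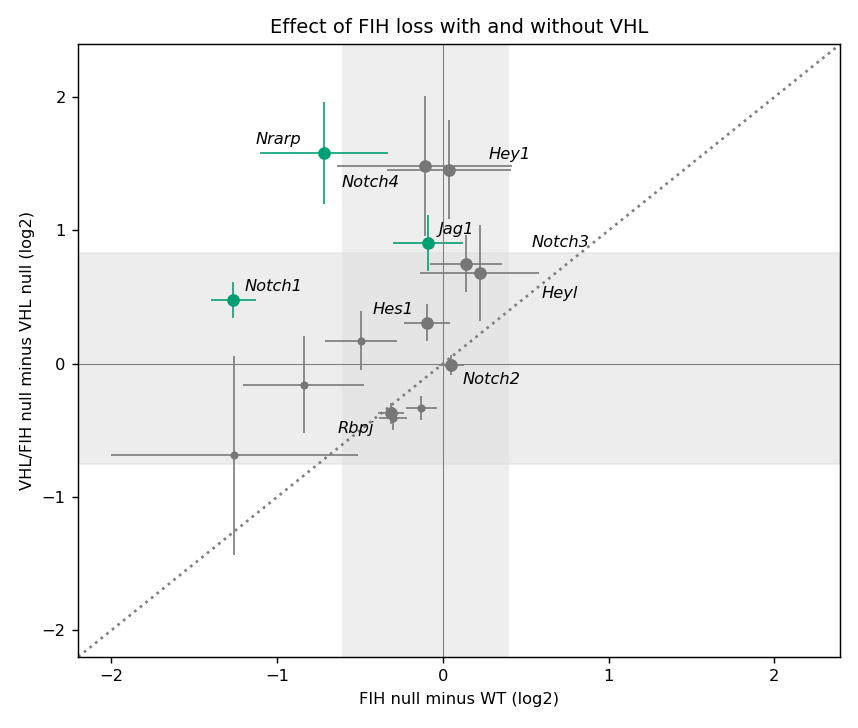
Log2 effect of FIH loss in cells with VHL (x axis, FIH null minus wild type) and without VHL (y axis, double null minus VHL null) for 15 tested Notch probe sets, large points for the lead ones, with bars of 1 SE; green marks an interaction with adjusted p under 0.05, the dotted line equal effects, and the grey bands the middle 90% of all tested probe sets. Notch1, Nrarp and Jag1 are green, and of the lead probe sets only that of Rbpj lies below 0 on both axes by more than 1 SE.

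The probe sets of 1 gene were set side by side because several genes rest on 1 of them. Notch1 and Rbpj were measured above the cutoff by more than 1 probe set, each with the same order of wild type over FIH null and of VHL null against wild type in its probe sets. In double null cells their probe sets differed. Against FIH null cells Notch1 changed by 0.63 in the lead and -0.135 (adjusted p = 0.667) in the other probe set. Against wild type cells Rbpj changed by 0.29 in the lead, 0.20 (adjusted p = 0.116) in 1448957_at and -0.18 (adjusted p = 0.135) in 1418114_at. For Jag1 the tested probe sets went opposite ways in double null cells, and for Notch3, Notch4, Heyl and Nrarp the lead probe set was the only one tested. No comparison passed for either tested probe set of Notch2. Hes1 and Hey1 have 1 probe set each. Statements on Notch4, Hey1, Nrarp and Jag1 therefore rest on a single probe set with signals near the cutoff.

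**Figure D4:**
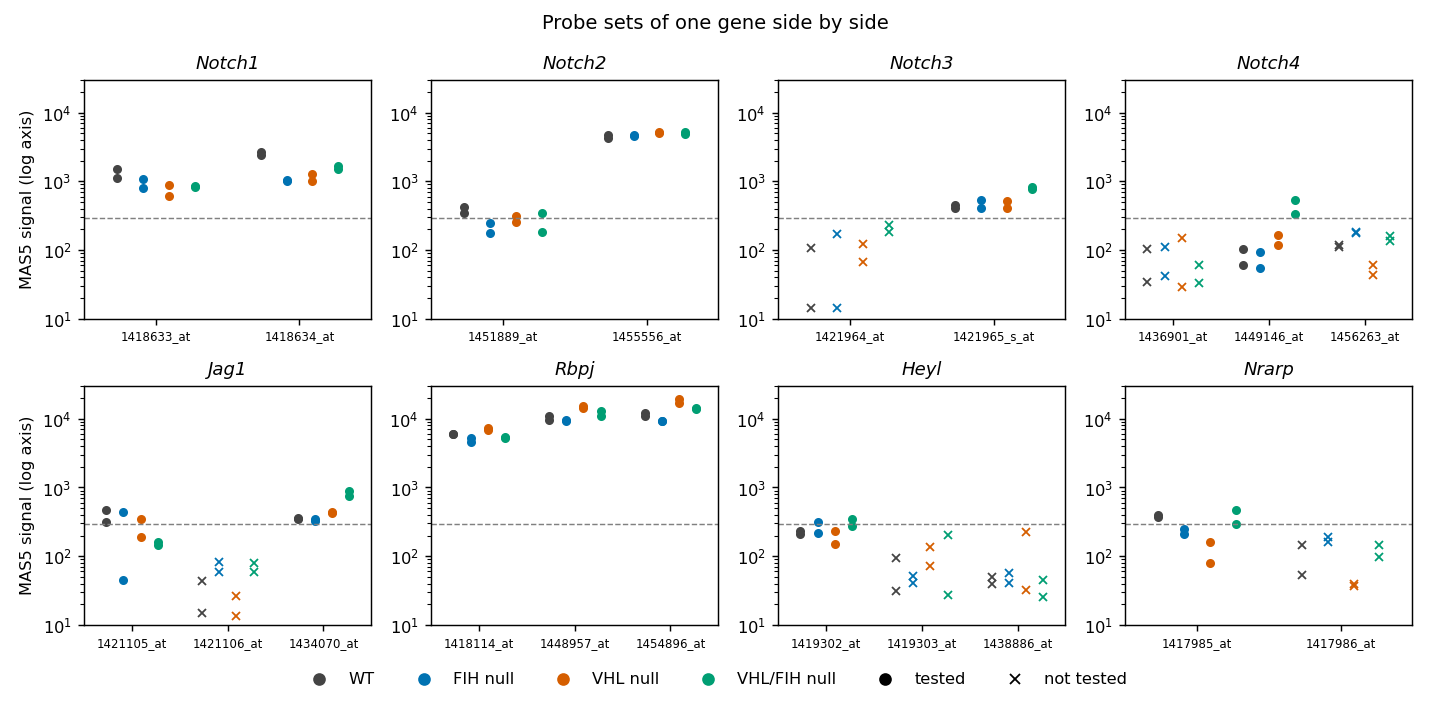
MAS5 signals (log axis) of each probe set of the 8 Notch genes with more than 1, on each array and coloured by genotype; crosses mark probe sets that were not tested and the dashed line is the cutoff of 291.1. The 3 probe sets of Rbpj all peak in VHL null cells, whereas 1 of the 3 of Notch4 and 1 of the 3 of Jag1 rise above the other groups in double null cells.

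For the 5 genes whose lead probe set had group means that span over 1 log2 unit, the 3 genes of most similar pattern were named by the root mean square difference between centred log2 profiles over the 8 arrays, as a description with no test. For Notch1 these were Mme (0.149), which encodes a membrane peptidase, Nid2 (0.181), a basement membrane gene, and Tmem26 (0.19). The group means of Mme were 2729 in wild type cells, 1255 with FIH lost, 1291 with VHL lost and 2248 with both lost. For Jag1 they were Pon3 (0.0973), Gadd45g (0.107), a stress-response gene, and Trpc1 (0.113), a cation channel gene. Those of Gadd45g were, in that order, 9592, 8774.5, 11097 and 19714. For Hey1 they were Ripk4 (0.232), Cpeb2 (0.272) and Ampd3 (0.277). For Notch4 they were Glrb (0.266), Hoatz (0.277) and Trabd2b (0.334), and for Nrarp Srms (0.234), Dcp1b (0.254) and Nxph4 (0.282).

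The wider pathway was described with 4 lists of 90 genes in all, of which 84 had a probe set and 73 were tested, each by its lead probe set. In FIH null against wild type cells 4 passed, Mfap2, Myc, Tle4 and Id1, each lower, against 5.28% called of all 11564 genes, 1.39% higher and 3.89% lower. In VHL null against wild type cells 13 rose and 18 fell, against 41.4% called of all genes, 14.4% higher and 27.0% lower, with a median change of -0.11 over the lists and -0.10 over all genes. Double null against wild type cells had 14 rises and 12 falls, against 39.0% of all genes, 16.7% higher and 22.3% lower, with medians of 0.01 and -0.05. Against VHL null cells 16 rose and 14 fell in double null cells (35.0% of all genes, 20.7% higher and 14.3% lower), and against FIH null cells 18 rose and 20 fell (43.5% of all genes, 19.7% higher and 23.9% lower). In the interaction 10 were above 0 and 9 below it, against 19.1% of all genes, 11.9% above and 7.19% below. The shares of the lists called were 5.48%, 42.5%, 35.6%, 41.1%, 52.1% and 26% in these 6 comparisons. Scaled to the hybridization controls, the lists had 0 rises and 26 falls (FIH null), 5 and 51 (VHL null) and 6 and 58 (double null) against wild type, 11 and 20 for double null against VHL null, 11 and 40 for double null against FIH null and 13 and 6 in the interaction. In that scaling 8 of the 14 rises in double null against wild type cells became negative, as did 4 of the 13 in VHL null cells. Of all 24523 tested probe sets, 7942 (FIH null), 15370 (VHL null) and 18121 (double null) then passed against wild type. With median centring the lists had 21 rises and 9 falls in VHL null and 16 and 9 in double null against wild type cells, 13 and 17 for double null against VHL null, 19 and 14 for double null against FIH null and 6 and 10 in the interaction.

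Among 8 tested genes of other ligands and matrix proteins reported to bind Notch or its ligands, the matrix genes and Dlk1 changed most. Mfap2, a microfibril gene, read 2361 and 2431 in wild type, 715 and 691 in FIH null, 1712 and 1886 in VHL null, and 598 and 426 in double null cells, and changed by -1.75 in FIH null (adjusted p = 1.09e-04) and by -2.21 in double null against wild type cells (adjusted p = 3.38e-06). Mfap5, another microfibril gene, read 425 and 476 in wild type, 567 and 494 in FIH null, 218 and 181 in VHL null, and 1804 and 1430 in double null cells. It was at least 1.55-fold lower in VHL null than in wild type cells (adjusted p = 0.00238) and at least 5.55-fold higher in double null than in VHL null cells (adjusted p = 4.77e-06). Dlk1, which encodes a membrane protein related to Notch ligands, read 30302 and 30886 in wild type and 8009 and 6322 in double null cells, a fall of 2.10 (adjusted p = 1.02e-07). Dll4, a ligand of endothelial cells, was at least 1.16-fold higher in double null than in VHL null cells (adjusted p = 0.0341), a call that ended without VHL null replicate 1 (0.198) or either double null replicate (0.149 and 0.0748).

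Of 28 tested genes of receptor processing, glycosylation and trafficking, 2 rose and 9 fell in VHL null cells (7.14% and 32.1%, against 14.4% and 27.0% of all genes), among them Ncstn (-1.01, adjusted p = 5.66e-04) and Psen2 (-0.76, adjusted p = 0.00313), subunits of the gamma-secretase that cleaves Notch, and Lfng (-0.57, adjusted p = 0.00229), a glycosyltransferase gene that tunes ligand choice. Between double null and VHL null cells 6 rose and 3 fell (21.4% and 10.7%, against 20.7% and 14.3% of all genes), with Ncstn higher by 0.59 (adjusted p = 0.0121) and Pofut1, the fucosyltransferase gene of Notch, higher by 0.44 (adjusted p = 0.00711). The Ncstn call ended without VHL null replicate 2 (0.0908) or double null replicate 1 (0.0924), and the Pofut1 call without VHL null replicate 1 (0.0544). Between double null and FIH null cells 3 rose and 9 fell (10.7% and 32.1%, against 19.7% and 23.9% of all genes), with Lfng (-0.71) and the gamma-secretase gene Aph1b (-0.62) among the latter.

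Of 18 tested genes of the transcription complex and its corepressors, Fhl1, a LIM-domain gene with an isoform that binds RBPJ, changed most. It read 14798 and 16675 in wild type, 17521 and 17603 in FIH null, 1648 and 1630 in VHL null, and 31962 and 29438 in double null cells. It fell by 3.25 in VHL null (adjusted p = 3.52e-09) and rose by 0.96 in double null against wild type cells (adjusted p = 4.34e-06). Spen, a corepressor gene of RBPJ, fell by 0.65 in VHL null cells (adjusted p = 0.00238), and the acetyltransferase gene Kat2a by 0.53 in double null against wild type cells (adjusted p = 2.21e-04). In this list 2 rose and 5 fell in VHL null cells (11.1% and 27.8%, against 14.4% and 27.0% of all genes). In double null against wild type cells 1 rose and 3 fell (5.56% and 16.7%, against 16.7% and 22.3%), and 5 rose and 6 fell when double null cells were set against FIH null ones (27.8% and 33.3%, against 19.7% and 23.9%).

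Of 19 tested genes of the other Hes and Hey genes, of Tle corepressors and of genes reported as Notch targets elsewhere, 9 rose and 3 fell in VHL null cells, against 14.4% and 27.0% of all genes, with a median of 0.18. Between double null and wild type cells 8 rose and 5 fell (42.1% and 26.3%, against 16.7% and 22.3% of all genes), with a median of 0.17 against -0.05 over all genes, and 4 of the 8 rises, those of Myc, Snai2, Id1 and Id3, became negative with scaling to the hybridization controls. Under that scaling the list had 5 rises and 10 falls in VHL null cells (median -0.20). In double null against wild type cells it then had 4 rises and 11 falls (median -0.35). With median centring the rises and falls were 10 and 2 in VHL null and 8 and 3 in double null against wild type cells. Hey2, a repressor gene of the same family as Hey1 and singled out after its values were seen, read 108 and 88 in wild type, 246 and 85.9 in FIH null, 338 and 388 in VHL null, and 730 and 1005 in double null cells. The double null arrays of Hey2 stood above all others, and their mean was at least 2.98-fold higher than that of wild type (adjusted p = 4.84e-04), a call that held under each alternative run. These genes answer to many pathways besides Notch. Cdkn1a, the cell cycle inhibitor gene, read 6391 and 5027 in wild type, 5303 and 5619 in FIH null, 9183 and 8742 in VHL null, and 25422 and 22083 in double null cells, and rose by 2.06 in double null against wild type cells (adjusted p = 3.06e-07). Myc fell by 0.45 in FIH null cells (adjusted p = 0.0112, ended without any 1 of wild type replicate 1 and both FIH null replicates at adjusted p from 0.0637 to 0.0903) and rose by 0.55 in VHL null cells (adjusted p = 6.57e-04, 0.0959 with scaling to the hybridization controls). Id2, an inhibitor of helix-loop-helix factors, rose by 0.75 in VHL null cells (adjusted p = 2.73e-05). The cyclin gene Ccnd1 fell by 0.65 in VHL null cells (adjusted p = 6.13e-05), and the corepressor gene Tle2 fell by 1.52 in double null against wild type cells (adjusted p = 1.88e-05).

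**Figure D5:**
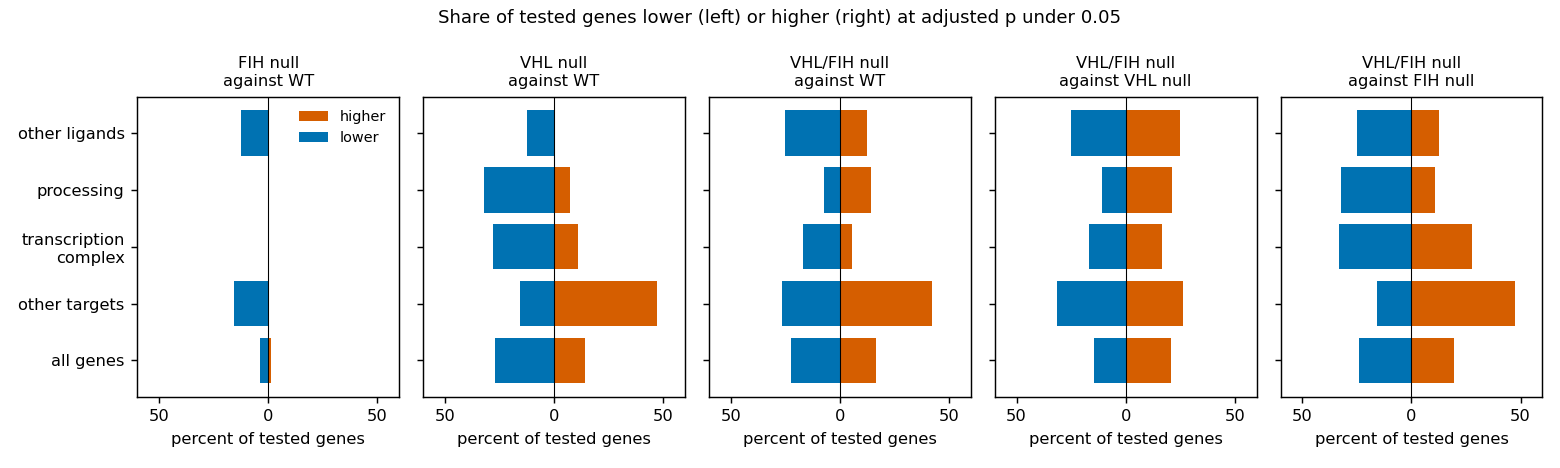
Share of tested genes lower (bars to the left, percent) and higher (bars to the right) at adjusted p under 0.05 in 4 lists of the wider Notch pathway and over all 11564 genes, in 5 comparisons. In the list of other targets 9 of 19 genes are higher both in VHL null cells and when double null cells are set against FIH null ones. With scaling to the hybridization controls, not drawn, 5 are higher and 10 lower in VHL null cells. In double null against FIH null cells 9 are then higher and 7 lower.

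Since Notch3, Notch4 and Hey1 also mark vessel cells, markers of those cells were read in the same groups. Of 13 endothelial markers 9 were below the cutoff on all arrays, among them Pecam1, Cdh5, Tie1 and Vwf, and their summed signal ran from 1527 to 1816 in wild type, 1351 to 1839 in FIH null, 1119 to 1592 in VHL null and 1922 to 2281 in double null cells. Flt1, which HIF also induces, read 376 and 398 in wild type, 437.5 and 394 in FIH null, 84.7 and 246 in VHL null, and 740 and 749 in double null cells. Of the 3 tested endothelial markers, 0 passed in double null against wild type cells. The others besides Flt1 were lower in mean there: Kdr at 246 ± 95.3 against 310 ± 57.4 in wild type, and Cldn5 at 221 ± 103 against 282 ± 4.81. Of 12 mural and smooth muscle markers 5 were below the cutoff on all arrays, among them Rgs5, Abcc9 and Kcnj8, which define pericytes. Their sum, mostly contractile genes, ran from 71959 to 75526 in wild type, 61406 to 64489 in FIH null, 58243 to 59450 in VHL null and 78911 to 87529 in double null cells. Cspg4 read 1003 and 1039 in wild type, 969.5 and 983 in FIH null, 772 and 938 in VHL null, and 2392 and 2043 in double null cells, and rose by 1.10 in double null against wild type cells (adjusted p = 1.76e-04). Cnn1, a contractile gene of this list, rose by 1.44 in that comparison (adjusted p = 2.41e-06). Of the 7 tested mural and smooth muscle markers 2 passed there as higher and 1 as lower. Other mural genes went the other way in that comparison: Mcam read 2638.5 and 2563 in wild type and 1821 and 1767 in double null cells (-0.53, adjusted p = 0.00248), and Pdgfrb, listed here with the fibroblast markers, fell from a mean of 9689.5 ± 548 to 5362 ± 1065 (-0.86, adjusted p = 1.87e-04). The part of these marker levels in the Notch values was not tested. Epithelial markers summed to between 10604 and 10711 in wild type and between 40409 and 47724 in double null cells, mostly by Krt19, whereas Krt18 read 1356 and 1393 in wild type and 382.5 and 298 in double null cells (-1.97, adjusted p = 8.97e-06) and Cdh1 and Cldn4 were below the cutoff on all arrays. Of 7 macrophage markers 5 were below it on all arrays, among them Ptprc and Adgre1. The sum of 6 neural markers ran from 8744 to 8906 in wild type and 8452 to 8981 in FIH null cells. It ran from 5913 to 6254 in VHL null and 8136 to 8631 in double null cells. In double null against wild type cells 1 of them passed as higher, Map2 (0.99, adjusted p = 3.18e-04). In that comparison 3 passed as lower: Tubb3, Nes and Sox2 (at least 1.85-fold, adjusted p = 3.01e-05). Map2 fell in VHL null against wild type cells (-2.47, adjusted p = 9.51e-07).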

How the data were processed

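Total RNA of 8 MEF samples was hybridised to Affymetrix Mouse Genome arrays, per the labels' protocols. The deposited values are linear signal intensities per probe set, made by the authors with MAS5, per the submitters' processing notes; the MAS5 settings are not given in the sources used here. Genes were named from GEO's platform annotation: of the probe sets that are not controls, 34945 had 1 symbol, 932 several and 9160 none. In a table of 45101 probe sets, 64 controls were left out. Here log2(intensity + 16) was fitted with limma 3.58.1 (R 4.3.3; 1 mean per group, all 8 arrays, eBayes with trend), with Benjamini-Hochberg adjustment over all 24523 tested probe sets in each of 6 contrasts, two-sided. The fit had 4 residual and 6.42 prior degrees of freedom, and was tested on simulated data. Means and SDs are of linear intensity, and changes on the log2(intensity + 16) scale understate those of low probe sets. An "at least" fold sets the higher group's mean against the cutoff of 291.1.

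The 10 genes, the lists, the motifs and the tests were chosen with earlier results of these data known. Named were all probe sets of the 10 genes, Hif1an and Vhl, up to 4 genes per list, contrast and direction with the smallest adjusted p, list genes below the cutoff, and the 3 genes of most similar pattern. Hey2 and the markers Flt1, Kdr, Cldn5, Cspg4, Cnn1, Mcam, Pdgfrb, Krt18, Krt19, Pdgfra, Dcn and Thy1 were singled out after their values were seen. Alternatives changed the pseudocount, filter, scaling, variance model, probe sets, replicate block and arrays left out.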

Additional observations from a re-analysis of the deposited data

Results flagged for a closer look

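The effect of FIH loss differed between cells with and without VHL in 3 of the 10 Notch genes by the interaction test (limma, adjusted p under 0.05), the values being the effect without VHL minus that with VHL on the log2 scale. Of all 11564 genes 19.1% passed this test, 11.9% above 0 and 7.19% below it. Whether the Notch genes exceed that share was not tested. The difference was 1.75 for Notch1 (adjusted p = 2.27e-04), 2.30 for Nrarp (adjusted p = 0.0174) and 0.998 for Jag1 (adjusted p = 0.0462). In the other Notch1 probe set it was 0.67 and did not pass (adjusted p = 0.18). That of Nrarp is no measure of size, since its FIH null and VHL null arrays lay below the cutoff. Its call was also favoured by the entry of Nrarp into the tests on wild type and double null arrays. That of Jag1 ended when any 1 array was left out, and that of Nrarp when any 1 of 4 arrays was.

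Among 73 tested genes of the wider pathway 10 passed above 0 and 9 below it, against 11.9% and 7.19% of all genes. With at most 4 named per list and direction, so that not all are given, the difference was above 0 for Fhl1 (4.05), Mfap5 (2.69), Gata3 (1.85), Cdkn1a (1.46), Tle4 (1.41), Ccnd1 (0.59), Numb (0.39) and Ctbp2 (0.36). It was below 0 for Dlk1 (-2.45), Sox9 (-1.31), Tle2 (-1.04), Bend6 (-0.72), Tle1 (-0.64), Aph1b (-0.61), Mib1 (-0.45), Ctbp1 (-0.37) and Kat2a (-0.35). The calls of Numb, Ctbp2, Bend6, Aph1b, Mib1, Ctbp1 and Kat2a ended when some single arrays were left out.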

How the results depend on the processing

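Of 32 called Notch changes, 13 were neither ended nor reversed by any alternative run, 19 were ended by some and 1 was reversed; of 34 changes not called that were recomputed, 6 passed in some, and 24 others not called, of probe sets other than the lead, were not recomputed. These counts include 2 calls of Notch4 from the filtered fit. With 2 arrays a group and signals near the cutoff, signal over background limits Notch4, Hey1, Heyl and Nrarp most.

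The count of Notch probe sets called in FIH null against wild type cells (1) was 6 with scaling to the hybridization controls and 2 with quantile normalization, array weights, 1 probe set per gene, no _s_at and _x_at probe sets, the replicate block or only the groups compared. With the filter at the 75th percentile of signals the counts were 3 in VHL null and 1 in double null against wild type cells, 3 in double null against VHL null, 2 in double null against FIH null cells and 0 in the interaction, where fewer probe sets were tested. With a change of at least 2-fold also required they were 2, 3, 2 and 3 in those 4 pairwise comparisons. Scaling to the controls gave 12 in double null against wild type cells. Over the array as a whole it also raised the calls against wild type, from 1062 to 7942 in FIH null and from 8358 to 18121 in double null cells. With 1 array left out the counts ran from 1 to 2 (FIH null), 3 to 7 (VHL null) and 3 to 8 (double null) against wild type, 4 to 9 and 4 to 7 in double null against VHL null and FIH null cells, and 1 to 3 in the interaction. Same-numbered arrays did not pair (r from -0.0157 to 0.0318 over 6 pairs of groups), and the replicate block moved no other count by over 1.5 times; of the Notch calls recomputed it ended that of the Jag1 interaction (adjusted p = 0.0542).

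Scaling to the hybridization controls reversed Notch2 (-0.21, -0.20 and -0.35 in FIH null, VHL null and double null against wild type cells, -0.14 in double null against FIH null cells, 0.0553 in the interaction), Notch3 (-0.12 in FIH null, -0.25 in VHL null), Jag1 (-0.12 in VHL null), Rbpj (-0.23 in double null, 0.051 in the interaction), Hey1 (-0.22 in FIH null, -0.0518 in VHL null), Heyl (-0.0344 in FIH null, -0.0644 in double null, -0.03 in double null against FIH null cells) and Vhl (-0.18 in FIH null), by construction, since it lowers all changes against wild type. Jag1 in FIH null cells turned to 2e-04 with quantile normalization, and Nrarp in double null against wild type cells to 0.0231 with it and 0.0229 with median centring.

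With 1 array left out, changes that were not called turned sign. In FIH null cells the ranges were -0.0079 to 0.11 for Notch2, -0.0357 to 0.32 for Notch3, -0.44 to 0.22 for Notch4, -0.25 to 0.0599 for Hes1 and -0.49 to 0.57 for Hey1. In VHL null cells they were -0.0523 to 0.30 for Notch3 and -0.51 to 0.0689 for Heyl, and in double null against wild type cells -0.38 to 0.27 for Nrarp. They were -0.0534 to 0.0401 for Notch2 in double null against VHL null cells, -0.20 to 0.0773 for Hes1 and -0.0093 to 0.41 for Heyl in double null against FIH null cells, and -0.12 to 0.0012 for Notch2 and -0.16 to 0.0346 for Rbpj in the interaction. The cause was not tested.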
